A study of Mus musculus with 30 samples.

Results

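The data described here are the 3 T2 and 3 T1 RNA-seq libraries of KOiMOS MPP3 cells at 3 months of age, 6 of the 30 libraries of the series. They were taken by their column names from the table of that group, and every gene with at least 1 TPM in at least 3 of the 6 libraries was compared between T2 and T1. TPM scale each library to a common total, so a TPM value is a share of the library's RNA and not an amount per cell. The series asks what Bcl11a does in multipotent progenitors, and also sequenced WTiMOS MPP3 and MPP4 cells at 3 and at 24 months. The T2 libraries carry the genotype label KOiMOS_T2 and the T1 libraries the label KOiMOS_T1. Both groups are MPP3 cells sorted by flow cytometry from mouse bone marrow at the same age, and both carry the KOiMOS genotype. The WTiMOS MPP3 libraries of 3 months, labelled WTiMOS_T2 and WTiMOS_T1, differ in that genotype and serve below as the nearest comparison. The sources used here do not give what T2 and T1 stand for, which allele the KOiMOS label denotes, what drives it, the sex, the number of animals or whether animals were pooled. The p-values therefore measure only the spread between libraries, which may be technical.

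MPP3 cells are multipotent progenitors with a bias to the myeloid lineages, in which granulocytes, monocytes, mast cells and basophils are made. Mast cells and basophils share much of their program with the erythroid and megakaryocytic branch, including the transcription factors Gata1 and Gata2. Their granules hold tryptases, chymases and carboxypeptidase A3, and their surface carries the high-affinity IgE receptor. Bcl11a is a zinc-finger repressor that is needed for B cell development and for keeping fetal-type globin genes silent in red cells.

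Of 24421 genes in the table, 12100 reached the filter. At the edge of the filter, just inside, Sept10 had 0.847, 0.632 and 1 TPM in T2 and 0.927, 1.56 and 1.2 TPM in T1 and Syn1 had 1, 1.62 and 0.122 TPM in T2 and 1.19, 0.538 and 0.627 TPM in T1. Just outside, Id3 had 0.611, 0.301 and 0.968 TPM in T2 and 2.33, 0.99975 and 1.41 TPM in T1. Hspb1, also outside, had 1.14, 0.99963 and 1.13 TPM in T2 and 0.783, 0.377 and 0.35 TPM in T1. A library held 11787 to 12008 genes at 1 TPM or more and summed to 1e+06 TPM, so the sequencing depth is unknown. Pearson's r across genes was 0.989 to 0.996 between libraries of a group and 0.972 to 0.978 between a T2 and a T1 library, and the first principal axis, which separates T2 from T1, held 70.9% of the variance. No library stood apart from its group.

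At an adjusted p below 0.05 (limma, Benjamini and Hochberg over all 12100 genes), 4399 genes or 36.4% differed between T2 and T1. Of these 1925 were higher in T2 (15.9% of the genes tested) and 2474 were lower (20.4%). Rescaling each library by the median ratio moved the split to 2389 higher and 2139 lower. The groups did not overlap for 2536 genes that lay above T1 in all T2 libraries (21%) and for 3433 that lay below (28.4%). Changes of 2-fold or more on the scale of log2(TPM + 1) were fewer and mostly upward, with 278 higher (2.3%) and 142 lower (1.17%), and at 4-fold or more 69 genes were higher and 9 lower. The log2 changes below are T2 minus T1 of log2(TPM + 1), which understates the change of low genes, and each named gene was read against these shares. The genes named for the largest changes were picked among those without overlap, so their lack of overlap is not a separate result.

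**Figure D1:**
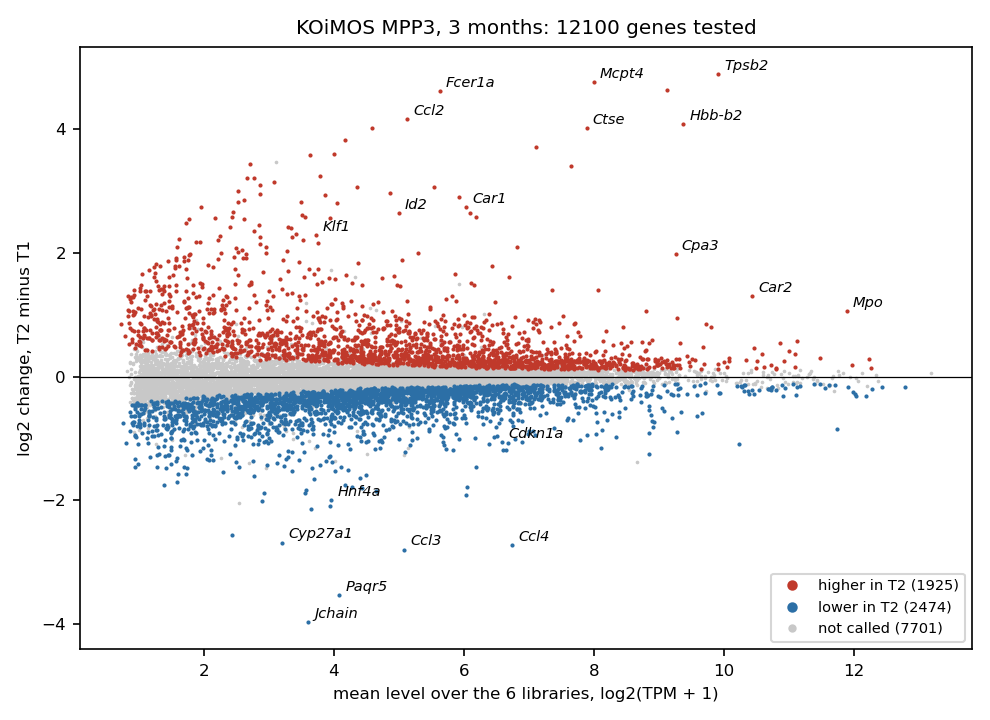
Each of the 12100 tested genes by its mean level over the 6 libraries (x, log2(TPM + 1)) and its log2 change, T2 minus T1 (y); red genes are higher in T2, blue genes are lower and grey genes were not called. The upward changes reach log2 4.88 (Tpsb2) and the downward ones -3.96 (Jchain).

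The gene named by the study was examined first. Bcl11a (chr11:24078056-24174123, plus strand, GRCm38) had 69.8, 64.3 and 70.6 TPM in the T2 libraries, against 68.8, 69 and 73.2 TPM in the T1 libraries. The groups overlapped, and the change of -0.043 was not called (adjusted p = 0.579). A gene-level TPM need not fall when part of a gene is deleted, so this value does not check the KOiMOS label.

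The MPP label was read against markers. All 7 MPP markers (Kit, Cd34, Cd48, Ly6a, Ptprc, Flt3 and Slamf1) reached 1 TPM in at least 3 libraries, and their summed level was 1954 to 2177 TPM in T2 and 2245 to 2354 TPM in T1. The 8 mast cell markers summed to 4862 to 5268 TPM in T2 and 814 to 879 TPM in T1, the 4 basophil markers to 237 to 248 TPM in T2 and 31.8 to 150.02 TPM in T1 and the 6 red cell markers to 608 to 663 TPM in T2 and 51 to 53.3 TPM in T1. The 6 monocyte and macrophage markers summed to 246 to 283 TPM in T2 and 154 to 163 TPM in T1, the 5 megakaryocyte markers to 71.4 to 82.8 TPM in T2 and 53.9 to 65.4 TPM in T1, 4 of the 5 neutrophil markers to 21.4 to 22 TPM in T2 and 9.02 to 12.7 TPM in T1 and the 3 eosinophil markers to 16.1 to 27.9 TPM in T2 and 27.8 to 38.6 TPM in T1. Dendritic cell markers summed to 0.0497 to 0.365 TPM in T2 and 0.128 to 0.275 TPM in T1, with Siglech at 0 in all libraries, and 3 of the 4 T and NK cell markers to 0.139 to 0.678 TPM in T2 and 0 to 0.145 TPM in T1. B cell markers summed to 1.2 to 5.66 TPM in T2 and 6.62 to 12.8 TPM in T1, 2 of the 3 plasma cell markers to 3.83 to 3.97 TPM in T2 and 8.84 to 42.3 TPM in T1 and stromal and endothelial markers to 116 to 130.2 TPM in T2 and 71.8 to 79 TPM in T1. In bulk RNA, fewer cells of a type and less RNA per cell cannot be told apart, and the part that mast, red cell or macrophage RNA from other cells has in the results below was not tested. All 4 Y-linked genes of the list were lower in T2, against 20.4% of all genes, and Xist was higher. The Y-linked translation factor gene Eif2s3y had 32.9, 34.6 and 32.7 TPM in the T2 libraries, against 67.8, 67.2 and 65.1 TPM in the T1 libraries. Xist, the RNA of the inactive X chromosome, had 29.1, 29.2 and 28.3 TPM in the T2 libraries, against 21.6, 22.8 and 21 TPM in the T1 libraries. Of the called genes 128 lie on the X or Y chromosome, which is 2.91% of the called genes against 3.38% of the genes tested. The part of sex-linked RNA in the other results was not tested.

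The largest increases of the comparison were in mast cell granule proteases. Of 11 tested proteases of mast cells and basophils, 8 were higher in T2 (15.9% over all genes) and 0 were lower, with a median log2 change of 3.07 against -0.042 over all genes. Their summed level was 5362 to 5593 TPM in T2 and 827 to 937 TPM in T1, a ratio of 6.19. They made up 0.547% of the RNA measured in T2 and 0.0884% in T1.

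Tpsb2, a tryptase stored in mast cell granules, had 1780.2, 1913 and 1888 TPM in the T2 libraries, against 62.6, 56.3 and 67.8 TPM in the T1 libraries (log2 4.88, adjusted p = 4.01e-12). Mcpt4 (chr14:56059629-56062313, minus strand), a chymase of connective tissue mast cells, had 513, 504 and 457 TPM in the T2 libraries, against 15.4, 22 and 14.8 TPM in the T1 libraries (log2 4.76, adjusted p = 8.91e-06). Cma1, the mast cell chymase, had 1051, 1120.4 and 1053 TPM in the T2 libraries, against 35.8, 33.4 and 64.5 TPM in the T1 libraries (log2 4.63, adjusted p = 0.000545). In all 3 genes the lowest T2 library lay far above the highest T1 library, where no overlap was a condition for naming them. The remaining tryptases were low in T1 and rose as well. Tpsab1 had 23.2, 36.9 and 25 TPM in the T2 libraries, against 0.707, 0.965 and 3.01 TPM in the T1 libraries (log2 3.6, adjusted p = 0.00229), and the membrane-anchored tryptase Tpsg1 had 20.9, 21.6 and 23.4 TPM in the T2 libraries, against 1.13, 0.958 and 0.691 TPM in the T1 libraries (log2 3.58, adjusted p = 6.95e-10). The tryptase genes resemble each other, and the sources used here do not say how the authors' counting divided reads between them.

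Cpa3 (chr3:20215620-20242181, minus strand), carboxypeptidase A3, was already abundant in T1 and was higher still in T2. It had 897, 1029 and 995 TPM in the T2 libraries, against 250.4, 234 and 257 TPM in the T1 libraries (log2 1.97, adjusted p = 3.8e-10). Ctsg, cathepsin G, which neutrophil precursors make as well, had 874, 757 and 808 TPM in the T2 libraries, against 409.5, 419 and 439.8 TPM in the T1 libraries (log2 0.94, adjusted p = 6.22e-08). Neither gene's groups overlapped. Gzmb, granzyme B, which basophils, mast cells and killer lymphocytes use, had 70.0, 91.2 and 82.2 TPM in the T2 libraries, against 10.8, 3.91 and 15.1 TPM in the T1 libraries (log2 3.07, adjusted p = 0.0131), and its call was lost without T2 replicate 3 (adjusted p = 0.0503). The basophil proteases were not called. Mcpt8 had 89.4, 72.7 and 97.8 TPM in the T2 libraries, against 55.7, 24.2 and 19.9 TPM in the T1 libraries (adjusted p = 0.0686). Prss34 had 39.4, 42.9 and 31.5 TPM in the T2 libraries, against 87.4, 31.9 and 4.5 TPM in the T1 libraries (adjusted p = 0.722). The T1 libraries were far apart for both genes. For Mcpt8 they nevertheless lay below all T2 libraries, while for Prss34 the groups overlapped and T1 replicate 1 was the highest of all 6 libraries.

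The receptors, mediators and regulators of mast cells and basophils went in both directions. Of 28 tested, 20 were higher in T2 and 5 lower, with a median log2 change of 0.81. Fcer1a, the IgE-binding chain of the high-affinity IgE receptor, had 95.4, 97.8 and 88.4 TPM in the T2 libraries, against 4.2, 1.05 and 4.49 TPM in the T1 libraries (log2 4.61, adjusted p = 0.00227). Its partners were expressed in both groups. Fcer1g, the signalling chain that many Fc receptors share, had 405, 371 and 389 TPM in the T2 libraries, against 142, 138 and 159 TPM in the T1 libraries (log2 1.4, adjusted p = 3.47e-09), and Ms4a2, the receptor's beta chain, had 18.6, 23 and 23.7 TPM in the T2 libraries, against 8.56, 8.21 and 8.78 TPM in the T1 libraries (log2 1.25, adjusted p = 1.06e-06). All 3 chains were thus above T1 in every T2 library, with the largest change in the IgE-binding chain. Il1rl1, the receptor of interleukin-33, had 33.1, 40.1 and 33.8 TPM in the T2 libraries, against 3.53, 2.87 and 3.71 TPM in the T1 libraries (log2 3.07, adjusted p = 1.15e-09). Cd200r3, an activating receptor of mast cells and basophils, had 23.4, 24.1 and 26.4 TPM in the T2 libraries, against 2.73, 1.52 and 2.95 TPM in the T1 libraries (log2 2.94, adjusted p = 1.87e-07).

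Enzymes of mediator synthesis separated into higher and lower genes. Hdc, which makes histamine, had 143, 163 and 161 TPM in the T2 libraries, against 50.2, 48.6 and 51.8 TPM in the T1 libraries (log2 1.61, adjusted p = 1.91e-09). Alox5, the lipoxygenase that opens the leukotriene pathway, had 48.4, 54.6 and 49.3 TPM in the T2 libraries, against 5.85, 4.78 and 6.35 TPM in the T1 libraries (log2 2.96, adjusted p = 7.92e-10). Ltc4s, which makes the cysteinyl leukotriene downstream of Alox5, went the other way, with 10.1, 8.32 and 9.65 TPM in the T2 libraries, against 29.5, 29.9 and 34 TPM in the T1 libraries (log2 -1.63, adjusted p = 5.81e-08). Both enzymes of this pathway were without overlap between the groups, in opposite directions. Tph1, the serotonin-producing hydroxylase, averaged 4.99 ± 0.384 TPM in T2 and 0.34 ± 0.302 TPM in T1 (SD, n = 3 each, log2 2.18, adjusted p = 7.72e-07), and Slc6a4, the serotonin transporter, averaged 11.4 ± 0.939 TPM in T2 and 0.346 ± 0.146 TPM in T1 (log2 3.21, adjusted p = 3.84e-09). Ndst2, which sulfates the heparin of mast cell granules, averaged 17.8 ± 1.06 TPM in T2 and 4.62 ± 0.272 TPM in T1 (log2 1.74, adjusted p = 3.8e-08). Cd63, a membrane protein of the granules, averaged 1083 ± 51.7 TPM in T2 and 598 ± 23.2 TPM in T1 (log2 0.85, adjusted p = 4.72e-08).

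Other receptors and regulators of the lineage had smaller changes or were not called. Kit, the receptor of stem cell factor, had 365, 418 and 373 TPM in the T2 libraries, against 417, 410.4 and 410.1 TPM in the T1 libraries, and the change of -0.10 was not called (adjusted p = 0.134). Mitf, a transcription factor of mast cells, averaged 5.31 ± 0.742 TPM in T2 and 2.98 ± 0.118 TPM in T1 (log2 0.66, adjusted p = 0.00101). Gata2 averaged 63.8 ± 6.08 TPM in T2 and 54.7 ± 1.89 TPM in T1 (log2 0.21, adjusted p = 0.0315), and its call was lost without T2 replicate 1, T2 replicate 2, T1 replicate 2 or T1 replicate 3 (adjusted p from 0.0803 to 0.127), and also with no filter on low values or in the fit of all 30 libraries (adjusted p = 0.0812 and 0.0568). Csf2rb, the shared beta chain of the interleukin-3 receptor, averaged 26.7 ± 2.98 TPM in T2 and 37.1 ± 2.3 TPM in T1 (log2 -0.46, adjusted p = 0.000919). Of 8 eosinophil genes, 2 were higher and 1 lower (15.9% and 20.4% over all genes), and 4 were higher without T2 replicate 3. Siglecf, an eosinophil surface lectin, averaged 15.1 ± 1.11 TPM in T2 and 25 ± 2.75 TPM in T1 (log2 -0.69, adjusted p = 0.000101).

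**Figure D2:**
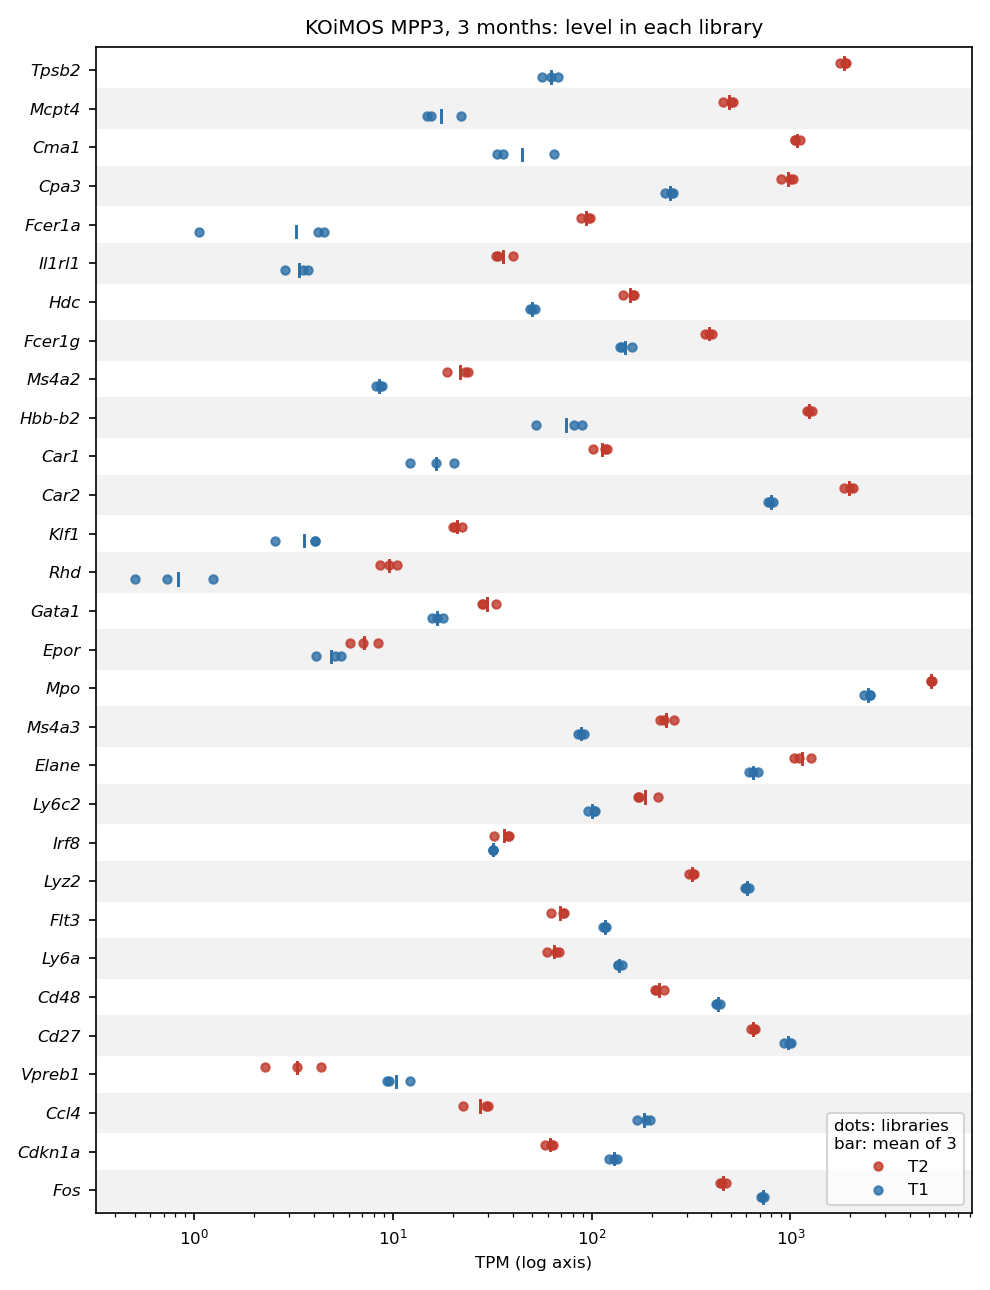
TPM of selected genes in each library on a log axis, with T2 and T1 libraries as dots and the mean of 3 libraries as a bar. The T2 libraries of Tpsb2, Mcpt4, Cma1 and Fcer1a lie far to the right of the T1 libraries, and those of Ccl4 and Cdkn1a lie to the left.

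To show the DNA next to these genes, the 250 bases before the annotated start were taken from RefSeq (GRCm38.p6). The letters AGATAA and TGATAA, core matches of the GATA factors, were searched on both strands and stand in capitals below, where TTATCT and TTATCA are the same matches on the other strand. Of the 27025 genes with an entry, 5092 (18.8%) held at least 1 of them before at least 1 annotated start. Genes are counted here and below, so a gene with several starts has several chances to hold a match. Among the 28 mast cell and basophil genes that were higher in T2, 25 had an entry and 11 held a match (44%). The 5 shown are proteases and receptor genes described above that hold one, each printed in the direction of transcription: Mcpt4 (chr14:56062311-56062560, minus strand), Cpa3 (chr3:20242182-20242431, minus strand), Fcer1a (chr1:173227230-173227479, minus strand), Ms4a2 (chr19:11623720-11623969, minus strand) and Il1rl1 (chr1:40429320-40429569, plus strand, the more upstream of its annotated starts).
Mcpt4: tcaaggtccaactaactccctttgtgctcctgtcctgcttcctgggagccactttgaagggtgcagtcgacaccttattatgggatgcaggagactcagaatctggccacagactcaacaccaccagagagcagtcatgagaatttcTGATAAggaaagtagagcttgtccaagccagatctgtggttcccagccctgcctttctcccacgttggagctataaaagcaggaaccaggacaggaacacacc
Cpa3: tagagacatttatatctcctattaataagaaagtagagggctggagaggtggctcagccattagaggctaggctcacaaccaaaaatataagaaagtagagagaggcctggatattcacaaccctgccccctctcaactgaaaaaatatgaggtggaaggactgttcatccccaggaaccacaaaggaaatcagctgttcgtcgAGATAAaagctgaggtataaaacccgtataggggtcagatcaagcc
Fcer1a: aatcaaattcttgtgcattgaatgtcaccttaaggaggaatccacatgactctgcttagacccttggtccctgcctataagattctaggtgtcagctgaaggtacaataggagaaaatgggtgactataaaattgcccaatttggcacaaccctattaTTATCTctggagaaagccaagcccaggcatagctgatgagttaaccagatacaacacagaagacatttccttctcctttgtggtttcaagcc
Ms4a2: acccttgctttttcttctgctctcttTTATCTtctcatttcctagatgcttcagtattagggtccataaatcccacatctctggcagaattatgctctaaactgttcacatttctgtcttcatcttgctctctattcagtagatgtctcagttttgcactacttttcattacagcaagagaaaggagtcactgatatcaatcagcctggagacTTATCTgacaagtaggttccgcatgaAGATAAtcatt
Il1rl1: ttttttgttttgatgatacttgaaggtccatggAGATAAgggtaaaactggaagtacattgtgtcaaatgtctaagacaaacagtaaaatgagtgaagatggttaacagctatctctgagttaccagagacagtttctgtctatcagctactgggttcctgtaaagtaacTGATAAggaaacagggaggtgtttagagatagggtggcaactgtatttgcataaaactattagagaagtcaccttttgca
Mcpt4, Cpa3 and Fcer1a each hold 1 match, Il1rl1 holds 2 and Ms4a2 holds 3. A match is a run of letters and not a measured binding site.

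Other letter patterns were counted in the same way, on both strands. CCNCNCCC, a core of the KLF family, occurred in 48.5% of all genes with an entry and in 13 of the 25 mast cell and basophil genes (52%). GAGGAAGT, a core of PU.1, occurred in 2.79% and in 2 of 25 (8%). The E-box CAGCTG occurred in 14.7% and in 4 of 25 (16%). The patterns were searched apart from each other, and overlaps between them were not removed.

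Red cell genes were higher as well, from the globins to regulators of the erythroid branch. Of 7 tested globin genes 5 were higher in T2 and 0 lower, and they summed to 1952 to 2100.3 TPM in T2 and 158 to 168 TPM in T1. Hba-x, counted among the 5, was listed at 0 in each T1 library and passed the filter through T2 alone. It could thus not be called lower. Of 31 erythroid regulators and membrane genes 17 were higher and 4 lower, with a median log2 change of 0.47, and 2 were lower without T2 replicate 1 or T1 replicate 1. Of 19 genes of haem synthesis and iron handling 8 were higher and 3 lower (15.9% and 20.4% over all genes).

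Hbb-b2, an adult beta globin, had 1246, 1213 and 1279 TPM in the T2 libraries, against 89, 81.4 and 52.4 TPM in the T1 libraries (log2 4.09, adjusted p = 0.000325), and Hbb-bs, another adult beta globin, had 517, 276 and 309 TPM in the T2 libraries, against 31.8, 39.7 and 27.4 TPM in the T1 libraries (log2 3.4, adjusted p = 0.00186). Every T2 library exceeded every T1 library by a wide margin in both. The table lists beta globin genes of both mouse haplotypes (Hbb-b1 and Hbb-b2, Hbb-bs and Hbb-bt), which are nearly identical, so their separate levels are uncertain and their sum is given above. Hbb-bt had 125, 105 and 128 TPM in the T2 libraries, against 12, 11.9 and 46.9 TPM in the T1 libraries (log2 2.58, adjusted p = 0.0385), its call was lost without T2 replicate 1, T2 replicate 2, T2 replicate 3, T1 replicate 1 or T1 replicate 2 (adjusted p from 0.0908 to 0.113), and its change was 3.21 without T1 replicate 3. Hba-a1 and Hba-a2, the alpha globins, share their coding sequence and were not called. Hba-x, the embryonic zeta globin, had 1.1, 4.7 and 2.69 TPM in the T2 libraries and was listed at 0 in each T1 library. The embryonic beta-like globin genes Hbb-y and Hbb-bh1 did not reach the filter and were not tested.

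Klf1, the transcription factor that opens beta globin and many red cell genes, had 22.3, 20.5 and 20.02 TPM in the T2 libraries, against 4.05, 2.55 and 4.04 TPM in the T1 libraries (log2 2.29, adjusted p = 1.01e-07). Gata1, the lead transcription factor of the branch, had 28.4, 33.1 and 27.9 TPM in the T2 libraries, against 17.8, 15.6 and 16.7 TPM in the T1 libraries (log2 0.80, adjusted p = 1.43e-05). Gfi1b, a repressor that acts with it, averaged 64.6 ± 0.984 TPM in T2 and 36.6 ± 2.46 TPM in T1 (log2 0.80, adjusted p = 9.02e-07). All 3 were higher in every T2 library. The carbonic anhydrases followed, with 112.44 ± 10.1 TPM in T2 and 16.3 ± 4.08 TPM in T1 for Car1 (log2 2.73, adjusted p = 0.000183) and 1971 ± 95.6 TPM in T2 and 796 ± 23.6 TPM in T1 for Car2 (log2 1.31, adjusted p = 1.15e-09). The blood group proteins Rhd and Rhag, which sit in the red cell membrane, averaged 9.51 ± 0.958 TPM in T2 and 0.823 ± 0.376 TPM in T1 (log2 2.54, adjusted p = 1.06e-07) and 6.62 ± 1.48 TPM in T2 and 0.648 ± 0.259 TPM in T1 (log2 2.2, adjusted p = 9.93e-07).

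Genes of late red cells were near 0 in both groups. Slc4a1, the anion exchanger of the red cell membrane, had 0, 0.0388 and 0.204 TPM in the T2 libraries, against 0, 0 and 0 TPM in the T1 libraries, and Alas2, the erythroid enzyme of the first step of haem synthesis, had 0.736, 0.939 and 0.928 TPM in the T2 libraries, against 1.12, 0.803 and 1.28 TPM in the T1 libraries. Epor, the erythropoietin receptor, averaged 7.16 ± 1.16 TPM in T2 and 4.87 ± 0.714 TPM in T1 (log2 0.47, adjusted p = 0.0143), and its call was lost without T2 replicate 1 or T1 replicate 2 (adjusted p from 0.0686 to 0.0725). Among haem genes, Abcb10, a mitochondrial transporter of the pathway, averaged 25.8 ± 0.679 TPM in T2 and 15.5 ± 0.841 TPM in T1 (log2 0.70, adjusted p = 1.27e-05), and Fech, which inserts the iron, averaged 48 ± 1.49 TPM in T2 and 35.5 ± 1.44 TPM in T1 (log2 0.42, adjusted p = 0.000155). Slc25a37, the mitochondrial iron importer mitoferrin, was lower, at 42.9 ± 0.469 TPM in T2 and 65.4 ± 2.05 TPM in T1 (log2 -0.60, adjusted p = 3.66e-06). Myb, a factor of early progenitors, averaged 72.3 ± 1.15 TPM in T2 and 89.2 ± 3.93 TPM in T1 (log2 -0.30, adjusted p = 0.000664).

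For the erythroid side, the 250 bases before the start of Klf1 (chr8:84901732-84901981, plus strand) and Hbb-bs (chr7:103827929-103828178, minus strand) are shown with the GATA matches in capitals, since these are the regulator and the globin with the clearest changes and an entry.
Klf1: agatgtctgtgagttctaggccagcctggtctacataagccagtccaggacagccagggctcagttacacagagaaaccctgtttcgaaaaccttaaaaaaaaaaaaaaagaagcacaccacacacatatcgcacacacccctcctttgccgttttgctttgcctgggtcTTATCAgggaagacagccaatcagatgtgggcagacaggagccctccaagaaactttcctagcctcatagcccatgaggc
Hbb-bs: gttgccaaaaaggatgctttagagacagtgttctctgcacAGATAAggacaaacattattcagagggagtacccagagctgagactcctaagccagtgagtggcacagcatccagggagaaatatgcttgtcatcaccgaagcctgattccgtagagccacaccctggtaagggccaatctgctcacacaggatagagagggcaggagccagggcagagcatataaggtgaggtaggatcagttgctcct
Each holds 1 match. Of the 30 globin, haem and erythroid genes that were higher in T2, 20 had an entry and 10 (50%) held a GATA match. The KLF pattern occurred in 13 of the 20 (65%), the E-box in 2 (10%) and the PU.1 pattern in 0. Among stem cell regulators that were lower in T2, 18 of 21 had an entry, 2 (11.1%) held a GATA match and 16 (88.9%) the KLF pattern, while the PU.1 and E-box patterns occurred in 0. No test was made of these shares.

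The megakaryocyte and platelet genes did not follow the red cell genes. Of 19 tested, 7 were higher and 7 lower, and without T1 replicate 1 the counts were 4 higher and 5 lower. Itga2b, the platelet integrin that also marks early progenitors, averaged 107 ± 5.28 TPM in T2 and 87.7 ± 2.11 TPM in T1 (log2 0.28, adjusted p = 0.0011). Plek, a protein kinase C substrate of platelets, averaged 31.8 ± 4.51 TPM in T2 and 72.4 ± 3.94 TPM in T1 (log2 -1.17, adjusted p = 2.78e-06).

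Primary granule genes of neutrophil precursors were higher for the peroxidase and the elastase group and lower for the lysozymes. Of 19 tested, not all of them granule proteins, 10 were higher and 5 lower (15.9% and 20.4% over all genes). Mpo, myeloperoxidase, had 5125, 5167 and 5081 TPM in the T2 libraries, against 2503, 2346 and 2515 TPM in the T1 libraries (log2 1.06, adjusted p = 2.25e-09). Elane, neutrophil elastase, had 1267, 1045 and 1103 TPM in the T2 libraries, against 617, 647 and 683 TPM in the T1 libraries (log2 0.81, adjusted p = 1.51e-05). Ms4a3, a membrane protein of granulocyte and monocyte progenitors, had 258, 230.3 and 219 TPM in the T2 libraries, against 88, 91.8 and 85.3 TPM in the T1 libraries (log2 1.4, adjusted p = 6.14e-09). In these genes the T2 libraries lay above all T1 libraries. Lyz2, the lysozyme of myeloid cells, was lower, with 308, 327 and 323 TPM in the T2 libraries, against 619, 595 and 589.8 TPM in the T1 libraries (log2 -0.91, adjusted p = 1.11e-08). Prtn3, proteinase 3, averaged 818 ± 63.3 TPM in T2 and 679.9 ± 17.3 TPM in T1, a small rise (log2 0.26, adjusted p = 0.00199).

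Genes of mature neutrophils stayed low. Of 14 tested, 6 were higher and 3 lower, where 15.9% and 20.4% of all genes were. S100a8, a subunit of calprotectin, averaged 19.3 ± 0.609 TPM in T2 and 8.51 ± 1.94 TPM in T1 (log2 1.11, adjusted p = 8.84e-05), and Lcn2, the siderophore-binding lipocalin of secondary granules, averaged 5.9 ± 1.3 TPM in T2 and 1.89 ± 0.356 TPM in T1 (log2 1.24, adjusted p = 6.06e-05). Cebpe, the transcription factor of the secondary granule stage, averaged 16.7 ± 1.14 TPM in T2 and 8.24 ± 0.671 TPM in T1 (log2 0.94, adjusted p = 7.62e-06). Csf3r, the receptor of granulocyte colony-stimulating factor, was lower at 88.5 ± 6.03 TPM in T2 and 146 ± 8.75 TPM in T1 (log2 -0.72, adjusted p = 1.97e-06).

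Of 26 monocyte priming genes 9 were higher and 4 lower (15.9% and 20.4% over all genes). Cx3cr1, the fractalkine receptor of monocytes, had 6.15, 6.47 and 6.39 TPM in the T2 libraries, against 1.19, 0.614 and 1.13 TPM in the T1 libraries (log2 1.9, adjusted p = 6.48e-07). Ly6c2, a surface protein of monocytes, had 216, 172 and 170.0 TPM in the T2 libraries, against 103, 95.7 and 102.14 TPM in the T1 libraries (log2 0.88, adjusted p = 8.56e-05). Neither overlapped. F13a1, a coagulation factor chain of monocytes, averaged 29.3 ± 5.31 TPM in T2 and 14.4 ± 2.3 TPM in T1 (log2 0.97, adjusted p = 0.00128), and Fcgr3, a low-affinity Fc receptor, averaged 104 ± 3.22 TPM in T2 and 36.6 ± 3.87 TPM in T1 (log2 1.48, adjusted p = 1.75e-08). Irf8 and the receptor gene Csf1r were not called, while the transcription factor gene Zeb2 was called lower and Klf4 did not reach the filter. Irf8, the transcription factor of monocytes and dendritic cells, had 38.1, 38.1 and 32 TPM in the T2 libraries, against 31.9, 32 and 31.9 TPM in the T1 libraries (adjusted p = 0.0992), and Csf1r, the receptor of macrophage colony-stimulating factor, had 6.94, 6.87 and 5.62 TPM in the T2 libraries, against 8.67, 7.42 and 7.2 TPM in the T1 libraries (adjusted p = 0.129). Of 15 macrophage genes 9 were higher and 2 lower. The complement subunit C1qb averaged 44.4 ± 1.08 TPM in T2 and 30.5 ± 1.37 TPM in T1 (log2 0.53, adjusted p = 3.19e-05), and Apoe, the lipid carrier, was lower at 357 ± 13.8 TPM in T2 and 591 ± 30.6 TPM in T1 (log2 -0.72, adjusted p = 2.56e-07).

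Lymphoid priming genes were mostly lower. Of 22 tested lymphoid priming genes 14 were lower in T2 and 2 higher (1 without T2 replicate 2, T1 replicate 1 or T1 replicate 2, and 3 without T2 replicate 3), with a median log2 change of -0.43. Flt3, the cytokine receptor of lymphoid-primed progenitors, had 62.5, 72.6 and 71.6 TPM in the T2 libraries, against 119, 116 and 114 TPM in the T1 libraries (log2 -0.75, adjusted p = 1.37e-06). Satb1, a chromatin organiser of lymphoid progenitors, averaged 3.67 ± 0.586 TPM in T2 and 7.35 ± 0.271 TPM in T1 (log2 -0.84, adjusted p = 0.000135), and Runx1, a transcription factor of all blood progenitors, averaged 38.2 ± 2.58 TPM in T2 and 52.6 ± 0.445 TPM in T1 (log2 -0.45, adjusted p = 0.000118). Flt3 was lower in each T2 library than in any T1 library. Some genes of the list were not called. The E protein gene Tcf3 averaged 16.2 ± 4.22 TPM in T2 and 11.3 ± 1.09 TPM in T1 (log2 0.46, adjusted p = 0.0514) and Dntt, the terminal transferase, averaged 11.3 ± 0.928 TPM in T2 and 13.1 ± 1.32 TPM in T1 (adjusted p = 0.129).

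B lineage genes were low in both groups and lower in T2. Of 13 tested, 9 were lower and 1 higher. Vpreb1, part of the surrogate light chain, had 2.26, 4.33 and 3.28 TPM in the T2 libraries, against 9.55, 9.34 and 12.2 TPM in the T1 libraries (log2 -1.43, adjusted p = 0.000113). Igll1, the other part, had 0.821, 4.22 and 2.29 TPM in the T2 libraries, against 13.3, 9.02 and 9.97 TPM in the T1 libraries (log2 -1.88, adjusted p = 0.0257), and its call was lost without T2 replicate 3, T1 replicate 1, T1 replicate 2 or T1 replicate 3 (adjusted p from 0.0691 to 0.0862). Cd72, an inhibitory receptor of B cells, was the higher one, at 130.1 ± 7.85 TPM in T2 and 90.2 ± 0.323 TPM in T1 (log2 0.52, adjusted p = 8.32e-06). The most decreased gene of the comparison was Jchain, the joining chain of secreted antibodies, with 0.0919, 0.219 and 0.263 TPM in the T2 libraries, against 21.5, 38.9 and 6.08 TPM in the T1 libraries (log2 -3.96, adjusted p = 0.0161). The T1 libraries differed from each other several-fold while the T2 libraries were near 0. The call was lost without T2 replicate 1, T2 replicate 2, T2 replicate 3 or T1 replicate 1 (adjusted p from 0.0532 to 0.0635), and the change was -4.65 without T1 replicate 3.

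Id2, an inhibitor of E proteins that dendritic, innate lymphoid and other cells use, was higher in T2. It had 53.1, 56 and 52.6 TPM in the T2 libraries, against 8.9, 8.28 and 6.49 TPM in the T1 libraries (log2 2.64, adjusted p = 2.17e-09), so each T2 library held several times the level of any T1 library. Early T cell and innate lymphoid genes split, with 6 of 18 higher and 10 lower. Among the lower ones, Cd4, the T cell coreceptor, averaged 0.661 ± 0.113 TPM in T2 and 3.95 ± 0.443 TPM in T1 (log2 -1.57, adjusted p = 2.56e-06), and Lat, an adaptor of T cell and mast cell receptors, averaged 58.8 ± 5.14 TPM in T2 and 134 ± 7.12 TPM in T1 (log2 -1.18, adjusted p = 5.69e-08). Zbtb16, the zinc-finger factor of innate-like lymphocytes, was higher at 9.72 ± 0.568 TPM in T2 and 6.43 ± 0.833 TPM in T1 (log2 0.53, adjusted p = 0.00211). Of 12 MHC class II genes 4 were higher and 6 lower (15.9% and 20.4% over all genes). H2-Aa, an antigen-presenting chain, averaged 21.3 ± 4.37 TPM in T2 and 9.84 ± 2.53 TPM in T1 (log2 1.05, adjusted p = 0.0112), while H2-DMa, a chain of the peptide exchanger, averaged 146 ± 4.14 TPM in T2 and 238 ± 2.96 TPM in T1 (log2 -0.70, adjusted p = 9.86e-08). Dendritic cell genes were 4 higher and 5 lower of 11 (15.9% and 20.4% over all genes), with 3 lower without T1 replicate 2.

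Regulators of blood stem cells were lower more often than higher. Of 37 tested, 21 were lower and 6 higher, with a median log2 change of -0.24, so most changes were small. Without T1 replicate 3 the counts were 20 lower and 3 higher. Hlf, a transcription factor of stem cells, had 22.6, 26.3 and 26.8 TPM in the T2 libraries, against 38.5, 39.3 and 36.6 TPM in the T1 libraries (log2 -0.58, adjusted p = 7.46e-05). Meis1, a homeobox cofactor, had 215, 237 and 228 TPM in the T2 libraries, against 274, 267 and 254 TPM in the T1 libraries (log2 -0.22, adjusted p = 0.00317), and its partner Hoxa9 had 49.7, 50.7 and 54.2 TPM in the T2 libraries, against 63.1, 62.7 and 62.6 TPM in the T1 libraries (log2 -0.28, adjusted p = 0.00163). The groups did not overlap in any of the 3. Hoxb4, another homeobox gene, averaged 0.83 ± 0.158 TPM in T2 and 2 ± 0.613 TPM in T1 (log2 -0.70, adjusted p = 0.00602), and Nr4a1, a nuclear receptor linked to quiescence, averaged 48.9 ± 1.32 TPM in T2 and 78.3 ± 1.53 TPM in T1 (log2 -0.67, adjusted p = 9.73e-07). The higher ones included Tal1, a basic helix-loop-helix factor shared with the erythroid branch, at 25.7 ± 0.283 TPM in T2 and 18 ± 0.728 TPM in T1 (log2 0.50, adjusted p = 0.000135).

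Surface markers that sort progenitors changed too. Of 31 tested, 6 were higher and 15 lower. Cd48, which separates MPP3 from stem cells, had 209, 231 and 212 TPM in the T2 libraries, against 440.1, 426 and 423 TPM in the T1 libraries (log2 -0.98, adjusted p = 1.58e-08). Ly6a, the Sca-1 antigen, had 59.8, 68.1 and 66.3 TPM in the T2 libraries, against 142, 135 and 135 TPM in the T1 libraries (log2 -1.08, adjusted p = 3.62e-08). Both fell with no overlap, and both are commonly part of sorting gates. Cd34, a sialomucin of progenitors, averaged 1169 ± 59.3 TPM in T2 and 984 ± 34.5 TPM in T1 (log2 0.25, adjusted p = 0.00131), and Esam, an adhesion molecule of stem cells and megakaryocytes, averaged 93.1 ± 2.45 TPM in T2 and 57 ± 3.46 TPM in T1 (log2 0.70, adjusted p = 1.46e-06). Il1r1, the interleukin-1 receptor, was lower at 3.38 ± 1.08 TPM in T2 and 8.16 ± 1.53 TPM in T1 (log2 -1.09, adjusted p = 0.00218). Stem cell ageing genes gave 8 higher and 6 lower of 22 (15.9% and 20.4% over all genes). The higher ones included the metal-binding metallothionein Mt1 at 78.9 ± 11.5 TPM in T2 and 31.4 ± 3.54 TPM in T1 (log2 1.3, adjusted p = 9.88e-05).

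Cytokine receptors and their signalling inhibitors fell more often than they rose, with 21 of 42 lower and 6 higher. Crlf2, the receptor of thymic stromal lymphopoietin, had 99.95, 96.5 and 83.7 TPM in the T2 libraries, against 169, 168 and 178 TPM in the T1 libraries (log2 -0.88, adjusted p = 5.37e-07). Il27ra, the interleukin-27 receptor, had 20.2, 19.6 and 21 TPM in the T2 libraries, against 43.7, 41.1 and 40.2 TPM in the T1 libraries (log2 -1.0, adjusted p = 2.3e-07). Csf2ra, the ligand-binding chain for granulocyte and macrophage colony-stimulating factor, averaged 70.9 ± 3.43 TPM in T2 and 101.66 ± 3.76 TPM in T1 (log2 -0.51, adjusted p = 1.43e-05). Crlf2 and Il27ra were lower in all T2 libraries. Of the 22 myeloid and Ikaros transcription factors 3 were higher and 13 lower (15.9% and 20.4% over all genes). Spi1, which encodes PU.1, averaged 117 ± 3.14 TPM in T2 and 119 ± 3.49 TPM in T1 and was not called (adjusted p = 0.588).

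**Figure D3:**
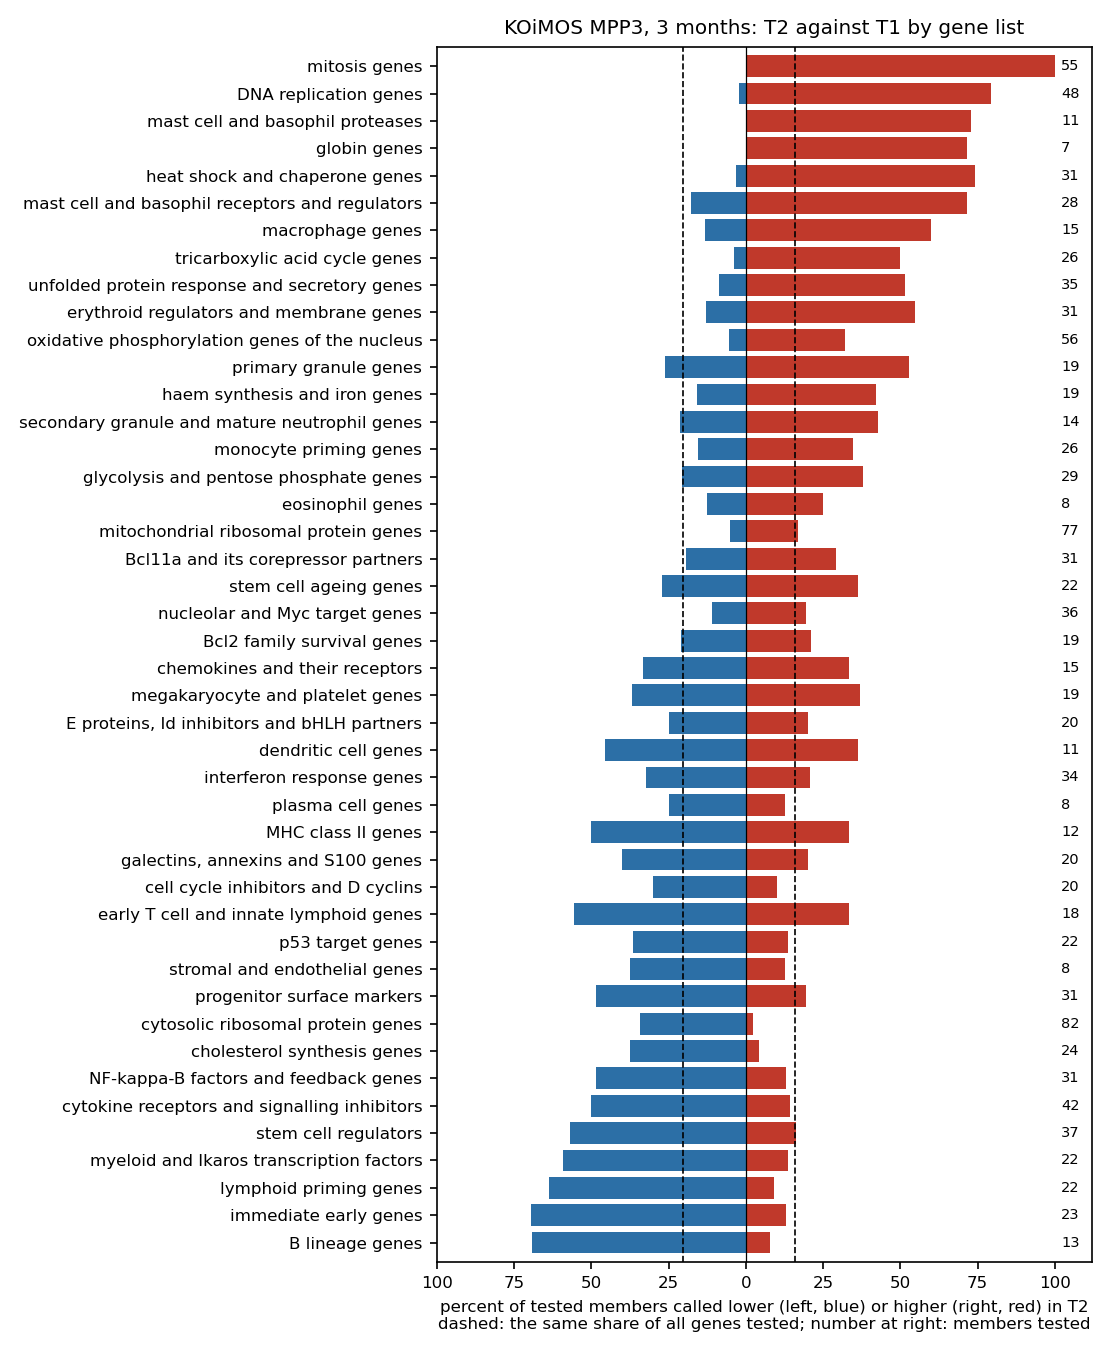
Percent of the tested members of each gene list called lower (left) or higher (right) in T2, with the number tested at the right and dashed lines at the shares of all genes, 20.4% and 15.9%. Mitosis genes were all higher, and stem cell regulators, lymphoid priming and immediate early genes lie mostly on the left.

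Genes of the dividing cell were higher throughout. All 55 mitosis genes tested were higher in T2, with a median log2 change of 0.78 and a range of 0.27 to 1.21. Pttg1, the securin that holds sister chromatids together, had 114, 118 and 136 TPM in the T2 libraries, against 46.9, 56.7 and 54.2 TPM in the T1 libraries (log2 1.21, adjusted p = 1.33e-06). Plk1, a kinase of mitotic entry, had 89.7, 91.1 and 92.4 TPM in the T2 libraries, against 46.6, 44.6 and 47.9 TPM in the T1 libraries (log2 0.96, adjusted p = 4.72e-08), and Ccna2, cyclin A, had 137, 153 and 142 TPM in the T2 libraries, against 76.1, 73.7 and 71.6 TPM in the T1 libraries (log2 0.96, adjusted p = 5.52e-08). No T1 library reached a T2 library in these genes. Of 48 replication genes 38 were higher and 1 lower (0 without T2 replicate 1, T2 replicate 3 or T1 replicate 1), with a smaller median of 0.32. Rrm2, a subunit of the enzyme that makes deoxynucleotides, averaged 172 ± 6.24 TPM in T2 and 93.2 ± 4.54 TPM in T1 (log2 0.88, adjusted p = 7.75e-08), and Ccne2, a cyclin of S phase entry, averaged 41.8 ± 1.38 TPM in T2 and 24.5 ± 2.3 TPM in T1 (log2 0.75, adjusted p = 7.86e-06). Mcm2 and Mcm4, subunits of the replicative helicase, were not called (adjusted p = 0.122 and 0.263).

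Most genes in a list of cycle inhibitors, D cyclins and their kinases were not called. Of 20 tested, 6 were lower and 2 higher, against 20.4% and 15.9% over all genes, and 1 was higher without T2 replicate 1, T2 replicate 2, T1 replicate 1 or T1 replicate 2. Cdkn1a, the p21 inhibitor of cyclin-dependent kinases, had 62.4, 63.9 and 58.2 TPM in the T2 libraries, against 130.1, 123 and 133 TPM in the T1 libraries (log2 -1.05, adjusted p = 3.21e-08), and Btg2, an antiproliferative gene, had 35.3, 33.3 and 32.5 TPM in the T2 libraries, against 78.4, 77.3 and 79.1 TPM in the T1 libraries (log2 -1.19, adjusted p = 1.48e-08). Both were lower in each T2 library. Of 22 p53 target genes 8 were lower (5 without T2 replicate 3 or T1 replicate 1) and 3 higher, Cdkn1a and Btg2 among the lower, with Sesn1, a stress-induced regulator of growth, at 63.9 ± 2.04 TPM in T2 and 114 ± 4.08 TPM in T1 (log2 -0.82, adjusted p = 1.39e-07). Cdk6, a kinase of the early cycle, averaged 215 ± 13.8 TPM in T2 and 302 ± 12.4 TPM in T1 (log2 -0.49, adjusted p = 1.59e-05).

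Immediate early genes, which cells switch on within minutes of a stimulus or of handling, were mostly lower. Of 23 tested, 16 were lower and 3 higher, with a median of -0.51. Fos, a subunit of the factor AP-1, had 441, 476 and 452 TPM in the T2 libraries, against 739.9, 713 and 721 TPM in the T1 libraries (log2 -0.67, adjusted p = 1.5e-07), and its partner Jun had 593, 618 and 587 TPM in the T2 libraries, against 927, 943 and 924 TPM in the T1 libraries (log2 -0.64, adjusted p = 1.19e-07). Fosl2, another AP-1 subunit, was higher at 12.9 ± 0.157 TPM in T2 and 7.35 ± 0.371 TPM in T1 (log2 0.73, adjusted p = 3.67e-05). The chaperones moved the other way, with 23 of 31 higher and 1 lower. Hspa1a, the inducible chaperone of heat shock, had 24, 26.5 and 19.3 TPM in the T2 libraries, against 6.53, 7.47 and 7.32 TPM in the T1 libraries (log2 1.57, adjusted p = 4.91e-07), and Hsp90aa1, an inducible cytosolic chaperone, averaged 949 ± 26 TPM in T2 and 680.3 ± 31.7 TPM in T1 (log2 0.48, adjusted p = 4.5e-06). Whether handling of the cells has a part in either list was not tested. Of 35 genes of the unfolded protein response and the secretory path 18 were higher and 3 lower. Hspa5, the chaperone of the endoplasmic reticulum, averaged 798 ± 4.9 TPM in T2 and 654 ± 6.42 TPM in T1 (log2 0.29, adjusted p = 6.55e-05). Trib3 and Chac1, targets of the factor Atf4, were lower, at 2.4 ± 0.423 TPM in T2 and 9.31 ± 0.366 TPM in T1 (log2 -1.61, adjusted p = 5.76e-07) and 0.192 ± 0.117 TPM in T2 and 3.07 ± 0.84 TPM in T1 (log2 -1.76, adjusted p = 7.4e-06).

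NF-kappa-B factors and feedback genes were lower for 15 of 31 and higher for 4, the largest being chemokines. Ccl4, which attracts monocytes and T cells, had 29.2, 22.6 and 30.1 TPM in the T2 libraries, against 169, 196 and 187 TPM in the T1 libraries (log2 -2.72, adjusted p = 5.47e-07), and Ccl3, its neighbour on chromosome 11, had 9.65, 8.09 and 5.2 TPM in the T2 libraries, against 61, 60.4 and 51.8 TPM in the T1 libraries (log2 -2.8, adjusted p = 0.000139). Ccl2, the ligand of Ccr2 on monocytes, moved the opposite way, with 57.8, 73.1 and 64.7 TPM in the T2 libraries, against 2.87, 1.29 and 4.67 TPM in the T1 libraries (log2 4.16, adjusted p = 0.0013). The 3 chemokines separated the groups without overlap, which was a condition for naming them by size of change. Of 15 chemokines and receptors 5 were higher (3 without T2 replicate 3 or T1 replicate 2) and 5 lower, against 15.9% and 20.4% over all genes. The lower ones included Ccl5 at 6.36 ± 0.753 TPM in T2 and 19.1 ± 5 TPM in T1 (log2 -1.43, adjusted p = 9.92e-05). Nfkbia, the inhibitor that NF-kappa-B induces, averaged 145 ± 11.6 TPM in T2 and 148 ± 3.55 TPM in T1 and was not called (adjusted p = 0.727).

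The largest changes held genes outside these lists. Ctse, the aspartic protease cathepsin E, had 422, 469 and 443 TPM in the T2 libraries, against 28.5, 28.1 and 23.2 TPM in the T1 libraries (log2 4.02, adjusted p = 2.91e-10). Mrgprb2, a receptor of mast cells for basic secretagogues, averaged 44.3 ± 5.11 TPM in T2 and 1.82 ± 0.36 TPM in T1 (log2 4.01, adjusted p = 3.8e-10), and its near relative Mrgprb1 averaged 14.2 ± 0.873 TPM in T2 and 0.729 ± 0.197 TPM in T1 (log2 3.14, adjusted p = 2.92e-09). Reads shared by these relatives make their separate levels uncertain. Sox18, a transcription factor of the endothelium, averaged 32.7 ± 1.96 TPM in T2 and 1.39 ± 0.336 TPM in T1 (log2 3.83, adjusted p = 5.56e-10), and Cldn13, a tight junction family member found in mouse erythroid cells, averaged 10.4 ± 1.27 TPM in T2 and 0.256 ± 0.288 TPM in T1 (log2 3.2, adjusted p = 3.13e-08). Mag, known as a myelin glycoprotein, averaged 11 ± 1.7 TPM in T2 and 0.106 ± 0.0152 TPM in T1 (log2 3.43, adjusted p = 3.49e-09). The enzyme of sarcosine breakdown, Sardh, averaged 12.1 ± 0.89 TPM in T2 and 0.535 ± 0.169 TPM in T1 (log2 3.09, adjusted p = 3.84e-09), and the zinc-finger gene Zfp105 averaged 23.9 ± 0.558 TPM in T2 and 1.63 ± 0.22 TPM in T1 (log2 3.25, adjusted p = 5.67e-10).

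On the lower side, Paqr5, a membrane progestin receptor, had 1.57, 1.96 and 1.59 TPM in the T2 libraries, against 31.4, 30.8 and 28.3 TPM in the T1 libraries (log2 -3.53, adjusted p = 3.8e-10). Cyp27a1, a sterol hydroxylase of mitochondria, averaged 1.48 ± 0.0728 TPM in T2 and 15 ± 2.22 TPM in T1 (log2 -2.68, adjusted p = 1.11e-08). Hnf4a, a nuclear receptor best known from liver and gut, averaged 5.24 ± 0.723 TPM in T2 and 23.8 ± 0.848 TPM in T1 (log2 -2.0, adjusted p = 2.33e-08). The T2 libraries were below all T1 libraries in each, which the rule for named genes required. Pdgfrb, a growth factor receptor of mesenchymal cells, averaged 7.78 ± 1.21 TPM in T2 and 28.9 ± 1.72 TPM in T1 (log2 -1.78, adjusted p = 8.88e-08), and Mmp2, a gelatinase, averaged 4.2 ± 0.287 TPM in T2 and 17.5 ± 1.06 TPM in T1 (log2 -1.83, adjusted p = 3.16e-08). The stromal list as a whole gave 1 higher and 3 lower of 8 (15.9% and 20.4% over all genes). Mid1, a ubiquitin ligase gene of the X chromosome, averaged 0.568 ± 0.0828 TPM in T2 and 8.21 ± 0.446 TPM in T1 (log2 -2.55, adjusted p = 1.49e-08), and Fstl1, a secreted follistatin-like protein, averaged 1.99 ± 0.452 TPM in T2 and 10.9 ± 0.684 TPM in T1 (log2 -2.0, adjusted p = 1.83e-07). Fam46a, Cpq, Il17re, Xlr4a, Wfdc17, Klk8 and Nefh complete the 20 largest decreases by the rule for named genes, with log2 changes of -2.08, -1.91, -1.88, -1.84, -1.8, -1.78 and -1.65 in that order.

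The list of decreases also held a row named for a microRNA hairpin. Mir19b-1 lies in the cluster of hairpins cut from the transcript of Mir17hg, and such rows count reads of long RNA over the hairpin, not mature microRNAs. Mir17hg, the host transcript, had 13.9, 15.3 and 13.3 TPM in the T2 libraries, against 27.1, 30.5 and 26.1 TPM in the T1 libraries (log2 -0.93, adjusted p = 3.84e-06). It was lower in each T2 library. The rows of the cluster changed by -1.53 for Mir17, -1.45 for Mir18, -1.51 for Mir20a and -1.75 for Mir19b-1, all called lower, and Mir19a was not called (log2 -1.36, adjusted p = 0.0585). The call of Mir19b-1 was lost without T1 replicate 1, T1 replicate 2 or T1 replicate 3 (adjusted p from 0.0611 to 0.0672), and that of Mir18 was lost without T2 replicate 2, T1 replicate 1, T1 replicate 2 or T1 replicate 3 (adjusted p from 0.0948 to 0.142), and also with a pseudocount of 0.1 or with the trend on GC content and length removed (adjusted p = 0.058 and 0.0726). The reads of these rows overlap those of the host, so they are not separate observations. Of 158 hairpin rows tested, 34 were lower and 1 higher. The share of lower rows is near the 20.4% over all genes, while the share of higher rows is far below the 15.9% over all genes.

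The mature sequences of these hairpins (RefSeq, GRCm38.p6, chromosome 14, plus strand) are shown because their seeds, bases 2 to 8 in capitals, set which RNAs they pair with.
miR-17-5p: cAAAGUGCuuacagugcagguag
miR-20a-5p: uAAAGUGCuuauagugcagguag
miR-18a-5p: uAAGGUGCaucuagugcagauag
miR-19a-3p: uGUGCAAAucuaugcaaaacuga
miR-19b-3p: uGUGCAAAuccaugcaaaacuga
miR-17-5p and miR-20a-5p share 1 seed and miR-19a-3p and miR-19b-3p share another, while miR-18a-5p differs from the first pair. Cdkn1a and Bcl2l11, known targets of this cluster, moved in opposite directions, with Cdkn1a lower as given above and Bcl2l11, a death-promoting member of the Bcl2 family, at 16.4 ± 1.8 TPM in T2 and 11.9 ± 1.13 TPM in T1 (log2 0.43, adjusted p = 0.00528).

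The same step, T2 against T1, was taken in WTiMOS MPP3 cells of 3 months to see where KOiMOS differs. There 11723 genes were tested, of which 983 were higher (8.39%) and 699 lower (5.96%). Of the 11363 genes tested in both tables, 4157 were called in KOiMOS and 1612 in WTiMOS, and 837 in both, which is 20.1% of the KOiMOS calls and 51.9% of the WTiMOS calls. Of these 837, 276 were higher in both and 220 lower in both, 148 were higher in KOiMOS T2 and lower in WTiMOS T2, and 193 were the reverse. The difference of the steps (KOiMOS minus WTiMOS, on the log2 scale) was called for 2523 genes (22.2%), of which 869 were more positive in KOiMOS (7.65%) and 1654 more negative (14.6%). Rescaling moved this split to 1213 more positive and 936 more negative, and the median difference of all genes to -0.018, against -0.15 as deposited. The called differences named below are larger than this shift.

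Bcl11a itself stepped differently. Its step was -0.043 in KOiMOS and 0.78 in WTiMOS, a difference of -0.82 (adjusted p = 0.000204). The WTiMOS libraries had 76.3, 85.3 and 73.8 TPM in T2 and 43.8, 48.5 and 43.5 TPM in T1, so T2 held more Bcl11a RNA than T1 there while the groups overlapped in KOiMOS.

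**Figure D4:**
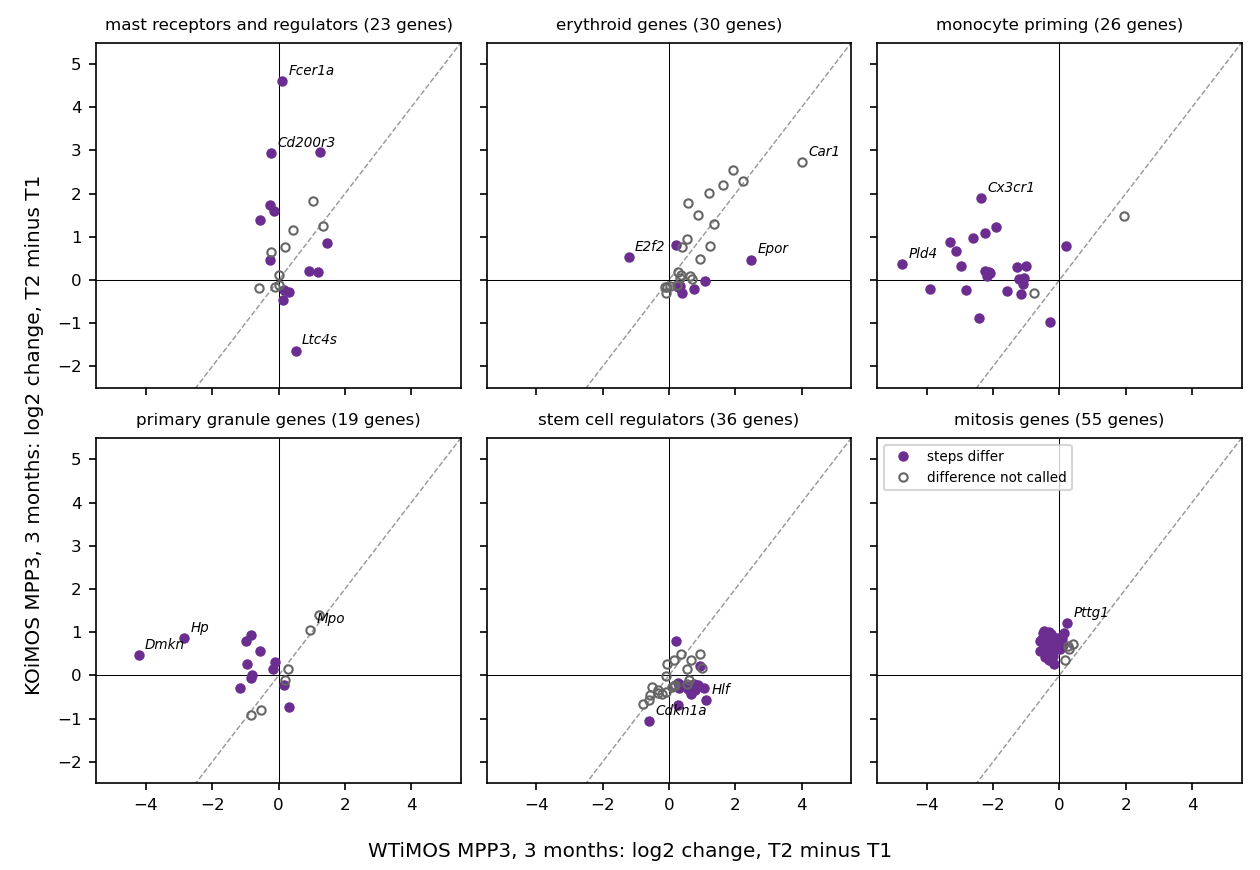
Log2 change, T2 minus T1, in KOiMOS (y) against WTiMOS (x) MPP3 cells of 3 months for 6 gene lists. Filled points are genes whose steps differ (adjusted p below 0.05), open points are not called, and the dashed diagonal marks equal steps. Monocyte priming genes lie to the left and above it, and many erythroid genes lie along it.

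Cpa3, Fcer1a and Hdc were higher in KOiMOS T2 and were not called higher in WTiMOS T2. Cpa3 stepped by 1.97 in KOiMOS and -0.80 in WTiMOS (difference 2.77, adjusted p = 1.34e-13). Fcer1a stepped by 4.61 and 0.10 (difference 4.51, adjusted p = 0.00028, and 3.82 without WTiMOS T2 replicate 1), and Hdc by 1.61 and -0.15 (difference 1.76, adjusted p = 3.02e-07). Ms4a2 rose in both, by 1.25 and 1.33, and its difference was not called (adjusted p = 0.909). Cma1 stepped by 4.63 in KOiMOS and 1.74 in WTiMOS, where it was low and uneven, with 0.474, 35.1 and 8.5 TPM in T2 and 1.25, 1.47 and 1.47 TPM in T1, and the difference of 2.89 was not called (adjusted p = 0.163). Without WTiMOS T2 replicate 1 or 2 that difference was 1.67 or 3.98 and was called. Of the 23 receptors and regulators shared by both tables, 7 were more positive and 7 more negative, 8 and 6 after rescaling.

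Car2, Klf1 and Mpo rose in both genotypes. Car2 stepped by 1.31 in KOiMOS and 1.35 in WTiMOS (adjusted p of the difference = 0.726), and Klf1 by 2.29 and 2.24 (difference 0.046, adjusted p = 0.967, and -0.62 without WTiMOS T1 replicate 2). Mpo stepped by 1.06 and 0.95 (adjusted p = 0.234). An uncalled difference does not show that steps are equal. Hbb-b2 rose further in KOiMOS, by 4.09 against 1.75 (difference 2.33, adjusted p = 0.000177). Epor rose less in KOiMOS, by 0.47 against 2.47 (difference -2.0, adjusted p = 0.000264).

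Monocyte priming genes differed between the genotypes in most members. Of 26 genes tested in both genotypes 23 were more positive in KOiMOS and 1 more negative, with a median difference of 2.27, and the counts were the same after rescaling. Irf8 was not called in KOiMOS (0.17) and fell by 2.08 in WTiMOS (difference 2.25, adjusted p = 1.31e-10). Ly6c2 stepped by 0.88 and -3.3 (difference 4.18, adjusted p = 0.00151), and Cx3cr1 by 1.9 and -2.35 (difference 4.25, adjusted p = 2.23e-06). Pld4, a nucleic acid exonuclease of myeloid and dendritic cells, had the smallest adjusted p of all, with steps of 0.36 and -4.73 (difference 5.09, adjusted p = 4.89e-16). In KOiMOS its own call was lost without T2 replicate 2, T2 replicate 3, T1 replicate 1 or T1 replicate 3 (adjusted p from 0.0657 to 0.077). The WTiMOS libraries held 8.84, 11.3 and 8.44 TPM in T2 and 290.3, 272 and 268 TPM in T1, so the WTiMOS step made up most of the difference. The primary granule gene Prtn3 stepped by 0.26 and -0.96 (difference 1.22, adjusted p = 5.97e-11).

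Mitosis genes were higher in KOiMOS T2 and not in WTiMOS T2, where 0 of 55 were higher and 12 lower, with a median log2 change of -0.29. For 51 of the 55 the step was more positive in KOiMOS, and for 0 it was more negative. Plk1 stepped by 0.96 and -0.38 (difference 1.34, adjusted p = 1.19e-07), and Rrm2 by 0.88 and -0.56 (difference 1.43, adjusted p = 4.3e-10). Asf1b, a histone chaperone of S phase, stepped by 0.87 and -0.69 (difference 1.56, adjusted p = 3.53e-11).

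Stem cell regulators leaned the other way. Of 36 tested in both, 14 were more negative in KOiMOS and 1 more positive, 11 and 2 after rescaling. Hlf stepped by -0.58 and 1.11 (difference -1.69, adjusted p = 5.67e-07), Meis1 by -0.22 and 0.87 (difference -1.09, adjusted p = 2.05e-07) and Hoxa9 by -0.28 and 1.05 (difference -1.33, adjusted p = 1.83e-06). All 3 were lower in KOiMOS T2 and higher in WTiMOS T2. Flt3 did the same, with -0.75 and 0.74 (difference -1.48, adjusted p = 1.11e-05). Id2 had the reverse pattern, with 2.64 and -1.04 (difference 3.68, adjusted p = 3.45e-09). Vpreb1 fell in both and fell less in KOiMOS, with steps of -1.43 and -2.83 (difference 1.4, adjusted p = 0.000572).

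Beside the other tables of the series, which share no library with KOiMOS, the steps of a few genes are given as values. Cpa3 stepped by 1.97 in KOiMOS MPP3, and by -2.41 in WTiMOS MPP3 and -2.81 in WTiMOS MPP4 cells of 24 months and -0.34 in WTiMOS MPP4 cells of 3 months. Id2 stepped by 2.64 in KOiMOS, and by -0.66, -0.40 and 0.28 in the same order. Hbb-b2 stepped by 4.09 in KOiMOS, and by 4.53, 1.59 and 2.38. The tryptase Tpsb2 met the filter in the WTiMOS MPP3 table of 24 months, with a step of 3.85, and in the KOiMOS table. The sign of the step was thus shared by all of these tables for Hbb-b2 and not for Cpa3 or Id2.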

How the data were processed

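Total RNA of sorted mouse bone marrow MPP3 cells was amplified with a low-input cDNA kit, per the labels' protocols. The deposited tables hold TPM per gene, made by the authors. The submitters' processing notes name HISAT2, StringTie, featureCounts, DESeq2 and mm10, but give no version and do not say which tool made the TPM. All columns were placed by name, with 0 left unmapped.

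TPM were taken as log2(TPM + 1), a pseudocount of 1. Genes at 1 TPM or more in at least 3 of 6 libraries were fitted with limma 3.58.1 in R 4.3.3 on the KOiMOS table alone (4 residual degrees of freedom, trend and robust moderation), and adjusted p is Benjamini and Hochberg's over all genes tested, called below 0.05. Errors are SD over 3 libraries. The difference of steps set 2 such fits, 1 per table, against each other with Satterthwaite degrees of freedom. The method was tested on simulated data. TPM carry no depth, so no counting interval can be given.

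The gene lists, members and rules were chosen with earlier results of these data known. Named genes were Bcl11a, up to 20 called genes per direction by size of change whose groups did not overlap and whose higher group averaged 5 TPM or more (predicted genes left out), up to 8 called members per list and direction with defining members whatever their call, and up to 10 genes per rule for the difference of steps. Genes near those rules (Mir17hg, its other hairpins, Bcl2l11) were added with values seen. Some genes that the rule names are not reported here. Positions are from GENCODE vM21 (GRCm38), and sequences are from RefSeq (GRCm38.p6). Alternatives were rescaling by median ratios, a pseudocount of 0.1, all genes kept, replicate number as a block, a fit of all 30 libraries with a weight per table, correction for GC content and length, and each library left out in turn.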

Additional observations from a re-analysis of the deposited data

Results flagged for a closer look

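A difference is listed here where the T2 minus T1 step of a named gene was not the same in KOiMOS and WTiMOS MPP3 cells of 3 months by the test of the difference itself (adjusted p below 0.05 over 11363 genes, of which 22.2% were called). This held for 47 of the 52 differences examined. The 52 include genes chosen by this same test and genes named for their change in KOiMOS. The count can therefore not be set against the 22.2%. Values below are the KOiMOS step minus the WTiMOS step on the log2 scale, and rescaling would move all of them up by about the shift in the median given above.

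Among mast cell genes the difference was 4.51 for Fcer1a, 2.77 for Cpa3, 1.97 for Fcer1g and 1.76 for Hdc. Among red cell genes it was 2.33 for Hbb-b2 and -2.0 for Epor. Genes of the primary granule list, not all of them granule proteins, gave 1.79 for Ctsg, 1.22 for Prtn3 and 1.79 for Elane. In the same list, Hp, which encodes haptoglobin, gave 3.71 and Dmkn, dermokine, gave 4.68. The KOiMOS step of Dmkn lost its call without T2 replicate 1, T2 replicate 3, T1 replicate 1 or T1 replicate 3 (adjusted p from 0.0609 to 0.153). It was also lost with no filter or in the fit of all 30 libraries (adjusted p = 0.0955 and 0.0755). The Elane difference lost its call without WTiMOS T1 replicate 1 or WTiMOS T1 replicate 2 (adjusted p = 0.0636 and 0.0564).

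The differences of monocyte and phagocyte genes were 5.09 for Pld4, 4.25 for Cx3cr1, 4.18 for Ly6c2, 3.78 for Lgals3, 3.57 for F13a1, 3.13 for Clec12a, 2.58 for Csf1r, 2.31 for Ccr2 and 2.25 for Irf8. Outside these groups F10, coagulation factor X, gave 4.83, Spp1, osteopontin, 4.22, Papss2, a sulfate donor synthase, 3.98, and Paqr5 -4.35. Mrgpra2a, a receptor of a multigene family, gave 4.06, and the call of its KOiMOS step was lost without T2 replicate 1, T1 replicate 1 or T1 replicate 3 (adjusted p from 0.0748 to 0.092). Tpm4, a tropomyosin, gave 2.99 and Ctla2a, a protease inhibitor gene, -1.13.

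The inhibitor Id2 gave 3.68, and the chemokines gave 3.66 for Ccl2, -1.81 for Ccl3 and -1.51 for Ccl4. Stem and progenitor genes were more negative in KOiMOS, with -1.69 for Hlf, -1.33 for Hoxa9, -1.09 for Meis1, -1.27 for Procr, -1.48 for Flt3, -1.43 for Itga2b, -0.74 for Myc and -0.82 for Bcl11a. Lymphoid genes gave 1.4 for Vpreb1 and 1.72 for Dntt. Genes of the cycle gave 1.56 for Asf1b, 1.43 for Rrm2, 1.34 for Plk1, 1.28 for Ccna2 and -0.44 for Cdkn1a, and Fos gave 0.29. The Cdkn1a difference was -0.31 after rescaling and was then not called (adjusted p = 0.072).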

How the results depend on the processing

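The number of called genes was 4399 as reported and lay between 4133 and 4528 under the alternatives that keep all libraries, and between 3393 and 4395 when 1 library was left out, with 1485 to 1777 higher and 1908 to 2659 lower. Of 2523 called step differences, the 1654 that were more negative numbered 936 after rescaling and 1031 to 1933 without 1 library, with 1031 without WTiMOS T1 replicate 1 and 1097 without WTiMOS T1 replicate 2. Of 164 called genes named with a change, 153 kept their direction and call under every alternative run, 9 lost the call in an alternative that keeps all libraries and 11 without 1 library, and 0 reversed.

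The deviations of same-numbered T2 and T1 libraries correlated at -0.0092, -0.067 and 0.0059, so no shared deviation was seen. With 3 libraries a group, these values cannot tell whether the replicate numbers mark pairs. With the replicate block 4133 genes were called (1810 higher, 2323 lower), and 2609 step differences. The block also ended the calls of Hbb-bt, Gzmb, Igll1, Jchain and Mir19b-1 (adjusted p = 0.0894, 0.0694, 0.126, 0.0655 and 0.0726 in that order), and brought the plasma cell genes called lower and the cycle inhibitors called higher to 1 each.

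Lists with small changes depended on the setting. Cytosolic ribosomal protein genes were lower for 28 of 82, 9 after rescaling, 11 without T1 replicate 2 and 44 with the trend on GC content and length removed, and the globins called higher went to 3 with the replicate block. B lineage genes called lower were 15 with no filter, and mitochondrial ribosomal protein genes called higher were 24 after rescaling. Nucleolar genes were 5 higher and 6 lower with the trend on GC content and length removed. With a pseudocount of 0.1 the changes of low genes were larger, 24 of the named values clearly so, where the log2 change reached 5.74 for Mag, 4.66 for Hba-x, 3.74 for Tph1 and -5.94 for Jchain. TPM give no depth, so differences of genes near 1 TPM cannot be set against counting error, and 3 libraries a group limit small changes.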

Other observations

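Energy metabolism moved in small steps. Of 26 genes of the tricarboxylic acid cycle 13 were higher in T2 and 1 lower, with a median log2 change of 0.14. The 13 numbered 8 without T2 replicate 3 or T1 replicate 3, 7 without T1 replicate 2 and 20 after rescaling, and the 1 lower numbered 0 without T1 replicate 1 or 3. Me2, the mitochondrial malic enzyme, averaged 91 ± 4.09 TPM in T2 and 66.5 ± 2.74 TPM in T1 (log2 0.45, adjusted p = 4.92e-05), and Cs, citrate synthase, averaged 209 ± 15 TPM in T2 and 173 ± 13.2 TPM in T1 (log2 0.27, adjusted p = 0.0071). Of 56 nuclear genes of oxidative phosphorylation 18 were higher and 3 lower (median 0.084, with 11 and 8 higher without T1 replicate 1 and T1 replicate 2, and 1 lower without T1 replicate 2 or 3). Of 29 glycolysis and pentose phosphate genes 11 were higher and 6 lower (15.9% and 20.4% over all genes). Hk3, the hexokinase of myeloid cells, had 579, 609.8 and 612 TPM in the T2 libraries, against 291, 279 and 297 TPM in the T1 libraries (log2 1.05, adjusted p = 3.8e-09), the largest rise of that list, with no overlap. Gapdh, a glycolytic enzyme often used as a standard, averaged 2330.2 ± 137 TPM in T2 and 1748 ± 99.5 TPM in T1 (log2 0.41, adjusted p = 7.01e-05), and Aldoc, an aldolase, was lower at 5.8 ± 0.567 TPM in T2 and 11.2 ± 0.756 TPM in T1 (log2 -0.84, adjusted p = 4.42e-05).

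Sterol genes pointed down where they changed, with 9 of 24 lower and 1 higher (20.4% and 15.9% over all genes). Sqle, squalene epoxidase, had 14.5, 18.2 and 14.7 TPM in the T2 libraries, against 27.5, 24.3 and 29.1 TPM in the T1 libraries (log2 -0.74, adjusted p = 9.3e-05). Of 34 interferon response genes 7 were higher and 11 lower (15.9% and 20.4% over all genes). Within 1 family, Oasl1, an inhibitor of interferon translation in mice, averaged 39.4 ± 1.04 TPM in T2 and 20.5 ± 1.03 TPM in T1 (log2 0.91, adjusted p = 5.53e-07) and Oasl2, an antiviral relative, averaged 37.8 ± 2.72 TPM in T2 and 67.4 ± 2.19 TPM in T1 (log2 -0.82, adjusted p = 1.08e-06), so these relatives moved in opposite directions. Ifitm1, a membrane protein that blocks viral entry, averaged 517 ± 22.5 TPM in T2 and 769.8 ± 44.8 TPM in T1 (log2 -0.57, adjusted p = 2.93e-06). Of 20 galectin, annexin and S100 genes 4 were higher and 8 lower (15.9% and 20.4% over all genes). Among the lower ones, Lgals1, galectin 1, averaged 179 ± 14.1 TPM in T2 and 342 ± 25 TPM in T1 (log2 -0.93, adjusted p = 1.85e-06).

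The list made around Bcl11a and its corepressor partners gave 9 higher and 6 lower of 31 (15.9% and 20.4% over all genes). The 9 higher numbered 5 without T2 replicate 1, T2 replicate 2 or T1 replicate 3 and 4 without T1 replicate 2. Rbbp4, a histone-binding subunit of several repressor complexes, averaged 293 ± 10.8 TPM in T2 and 245 ± 1.81 TPM in T1 (log2 0.26, adjusted p = 0.000412), and Hmga2, a chromatin protein of fetal stem cells, averaged 5.11 ± 0.385 TPM in T2 and 10.1 ± 0.481 TPM in T1 (log2 -0.87, adjusted p = 2.52e-05). Of 19 Bcl2 family genes 4 were higher and 4 lower, not far from the shares of 15.9% and 20.4% over all genes. Bid, which links death receptors to mitochondria, averaged 149 ± 6.6 TPM in T2 and 98.5 ± 1.37 TPM in T1 (log2 0.59, adjusted p = 1.37e-06). Bcl2, the survival protein, averaged 70.2 ± 0.635 TPM in T2 and 91.7 ± 1.57 TPM in T1 (log2 -0.38, adjusted p = 5.32e-05). Nucleolar and Myc target genes gave 7 higher and 4 lower of 36, where the share called higher is near the 15.9% over all genes. Without T2 replicate 1 there were 3 higher, and 4 without T1 replicate 1, 2 or 3. Myc itself averaged 534 ± 5.58 TPM in T2 and 659 ± 2.81 TPM in T1 (log2 -0.30, adjusted p = 4.23e-05). Mitochondrial ribosomal protein genes gave 13 higher and 4 lower of 77, where the share called higher is near the 15.9% over all genes. E proteins, Id inhibitors and their partners gave 4 higher and 5 lower of 20 (3 lower without T2 replicate 3 or T1 replicate 2), near the shares of 15.9% and 20.4% over all genes. The 8 plasma cell genes gave 1 higher (2 without T2 replicate 2) and 2 lower (1 without T2 replicate 1, 2 or 3 or T1 replicate 1).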
